A study of Arabidopsis thaliana with 12 samples.

Results

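The genes described here had under 1 RPKM in wild-type Arabidopsis thaliana seedlings and were listed as higher in at least 1 of 3 mutants. RPKM scales the reads of a gene by its transcript length and by the size of the library. A gene entered the set when a deposited table gave it a Col-0 value under 1 RPKM with a larger mutant value and its locus spanned 300 to 6000 bp. The rule leaves out 6 named genes, all of them listed as higher in nrpe1 and 1 also in idn2-1 (AT5G27845, AT5G35205, AT5G35207, AT1G33840, AT2G33175 and AT2G17690, the F-box gene SDC). The set has 67 members out of 1465 listed genes, or out of 1618 listed features once transposable elements are counted. The members were thus chosen by their Col-0 and mutant RPKM and by the authors' listing, so these values are given below as descriptions without a test.

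Many plant genes and transposons are kept silent by DNA methylation that small RNAs guide to chromatin. In this pathway RNA polymerase V makes non-coding transcripts that serve as a scaffold, and the RNA-binding protein IDN2 acts on those transcripts. SWI/SNF complexes, of which SWI3B is a subunit, move nucleosomes. Genes near silence in leaves also include stress genes, which stay off until a pathogen, wound or hormone signal arrives, and genes of seed or flower development.

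Ribosome-depleted total RNA came from whole seedlings of the Col-0 strain and of nrpe1, swi3b +/- and idn2-1, all at 2 to 3 weeks under long days, with 3 biological replicates for each of the 4 groups. NRPE1 forms the large catalytic subunit of RNA polymerase V, and the labels give no allele for nrpe1. The swi3b +/- plants are heterozygous and keep 1 normal copy. RNA from whole seedlings does not separate more cells of a type from more RNA per cell. Each genotype has a single deposited value in a table, which leaves the spread between replicates and the depth unknown, and each call is the authors' own at q under 0.05. Whether the libraries kept strand is not known here, so overlapping genes may share reads. The tables list changed features alone, and seedling markers were not checked.

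In the authors' deposited table NRPE1 fell from 3.98 to 1.01 RPKM in nrpe1, while SWI3B and IDN2 are not listed in their own mutants. Of 20 silencing genes, 2 were lower in nrpe1 and 1 in idn2-1 by the authors' deposited tables, and none was listed in swi3b +/-. The 2 in nrpe1 are NRPE1 and the demethylase gene ROS1, and ROS1 is the 1 in idn2-1. Of 7 SWI/SNF subunit genes, SWI3D alone was listed, at 1.55-fold higher in nrpe1 in the authors' deposited table.

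Listed as higher were 29 of the 67 members in nrpe1, 26 in swi3b +/- and 28 in idn2-1. As background, 1.04% of all features tested were listed as higher in nrpe1, 1.87% in swi3b +/- and 1.24% in idn2-1. Since these comparisons chose the members, nothing is read from the difference. Listed in either direction were 1.88% of features in nrpe1, 2.43% in swi3b +/- and 3.18% in idn2-1. No member was listed as lower in any table (0 of 67). In swi3b +/- the rule was met by 24 of the 26, as 2 members had Col-0 values just above 1 RPKM there. A gene missing from a table was not listed at q under 0.05, which does not show that it was unchanged.

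In the rows that met the rule, the members stayed low even where they were raised. The median in the mutant was 2.11 RPKM in nrpe1 (0.808 to 4.9969), 2.15 RPKM in swi3b +/- (1.16 to 8.59) and 1.87 RPKM in idn2-1 (0.604 to 7.79) in the authors' deposited tables. Genes listed as higher from 1 RPKM or more in Col-0 had medians of 18.1, 16.7 and 22.8 RPKM in the same tables as deposited. In swi3b +/- that group holds the members AT1G33760 and AT2G41640, which reached 17.7 and 4.74 RPKM there as deposited. The Col-0 limit separates these groups, so nothing is read from this difference. In Col-0 the authors' deposited tables put 10 of the 29, 3 of the 24 and 5 of the 28 members at exactly 0, and for these no fold is given. Multiplied by annotated exon length, the mutant values come to medians of 3.96 RPM in nrpe1, 4.33 RPM in swi3b +/- and 3.23 RPM in idn2-1, with the lowest member at 0.573 RPM (reads scaled by library size alone). These are estimates, since the transcript length used by the authors is unknown here.

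**Figure D1:**
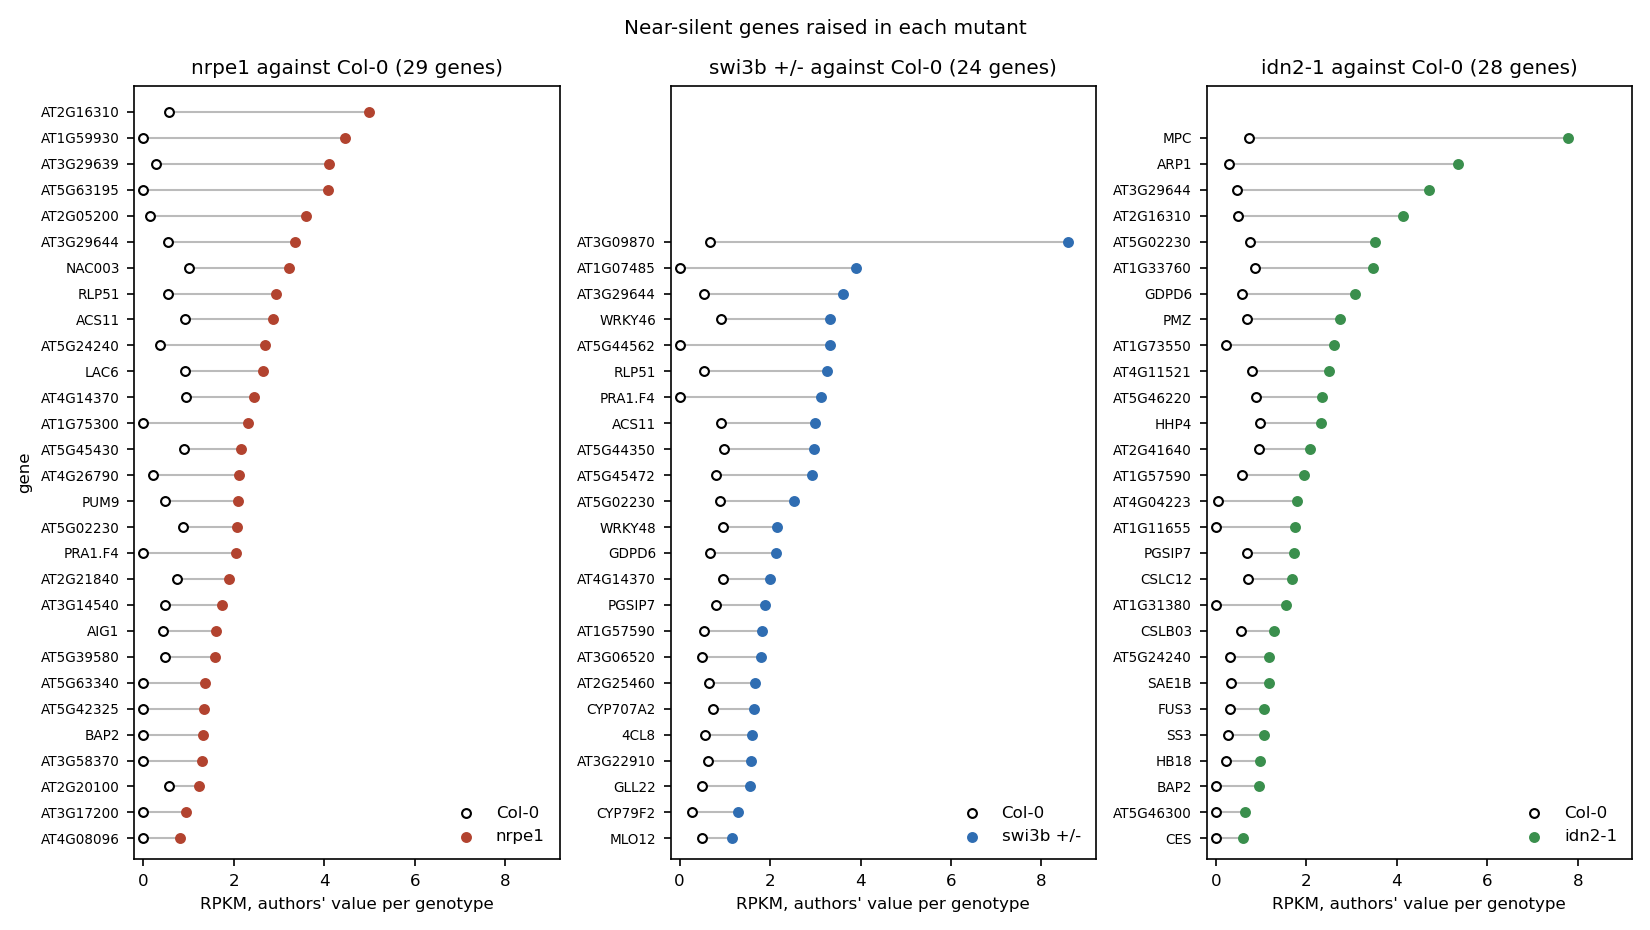
RPKM in Col-0 (open circles) and in the mutant (filled circles) for each near-silent gene that met the rule in a table, 1 row per gene and 1 panel per mutant, sorted by the mutant value. The highest filled circles are AT3G09870 in swi3b +/- at 8.59 and MPC in idn2-1 at 7.79.

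Most members were listed as higher in 1 table, 53 of the 67. Of these 20 were higher in nrpe1, 15 in swi3b +/- and 18 in idn2-1. A further 12 were higher in 2 tables and 2 in all 3. The matching shares over all listed higher genes were not computed, here or for the pairs of mutants below. These counts are therefore not read as a trait of near-silent genes. The tables share Col-0 plants, and the 6 members listed in both the nrpe1 and the swi3b +/- table have identical Col-0 values in them. For 9 shared members the Col-0 RPKM of the idn2 table was 0.854 to 1.07 times that of the other table, with a median of 0.854. A chance difference in Col-0 would therefore appear in more than 1 table, and values are set side by side without a test of overlap.

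The 2 members higher in all 3 mutants are a long non-coding RNA gene and an enzyme gene. AT3G29644 (chromosome 3, 11497888 to 11501366) is a non-coding gene on the minus strand. In the authors' deposited tables it had 0.54 RPKM in Col-0 and 3.36 in nrpe1, 0.54 and 3.61 in swi3b +/-, and 0.461 and 4.71 in idn2-1. These are rises of 6.23-fold (q = 1.33e-06), 6.70-fold (q = 2.73e-07) and 10.2-fold (q = 1.70e-10) in the authors' deposited tables. Its deposited locus also overlaps the annotated gene AT3G29642, so reads at the locus need not all be its own. AT5G02230 (chromosome 5, 448105 to 450654) encodes a haloacid dehalogenase-like hydrolase. In the authors' deposited tables its values were 0.884 RPKM in Col-0 and 2.08 in nrpe1, 0.884 and 2.53 in swi3b +/-, and 0.755 and 3.53 in idn2-1. The rises were 2.35-fold (q = 0.0187), 2.87-fold (q = 0.000843) and 4.67-fold (q = 3.31e-07) in the authors' deposited tables. For both genes the largest of the 3 folds is that of idn2-1, and the others lie close together.

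**Figure D2:**
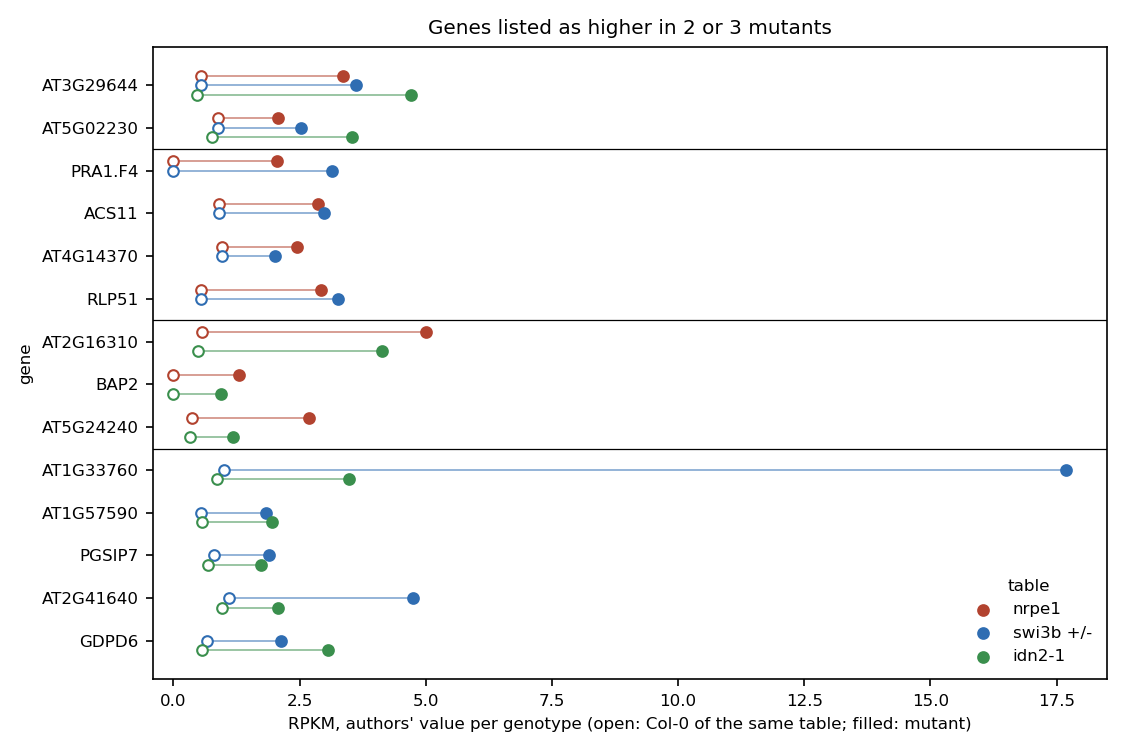
RPKM in Col-0 (open) and mutant (filled) for the 14 genes listed as higher in 2 or 3 mutants, coloured by table, with lines between genes of different table combinations. AT1G33760 in swi3b +/- reaches 17.7 RPKM, while AT3G29644 and AT5G02230 have a pair of circles in each of the 3 colours.

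Higher in both nrpe1 and swi3b +/- were 6 members, 20.7% of the 29 in nrpe1 and 23.1% of the 26 in swi3b +/-, with the 2 genes above among them. RLP51 (AT4G18760, chromosome 4, 10308163 to 10309531) encodes a receptor-like protein. It stood at 0.546 RPKM in Col-0, 2.92 in nrpe1 and 3.27 in swi3b +/- in the authors' deposited tables, rises of 5.35-fold (q = 0.00783) and 5.99-fold (q = 0.00227). AT4G14370, an intracellular immune receptor gene of the TIR-NBS-LRR class, went from 0.953 RPKM to 2.45 and 2.01 in the authors' deposited tables (q = 0.000214 and 0.0204). ACS11, an ACC synthase gene of ethylene synthesis, went from 0.912 RPKM to 2.87 and 2.99 in the authors' deposited tables (q = 0.00203 and 0.00104). PRA1.F4, for a prenylated RAB acceptor of membrane traffic, is listed at 0 in Col-0, at 2.05 RPKM in nrpe1 and at 3.13 in swi3b +/- in the authors' deposited tables. Its q-values of 4.76e-08 and 3.70e-11 are the smallest among the 4, and its locus overlaps AT3G13700.

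Genes higher in nrpe1 and idn2-1 number 5, or 17.2% of the 29 and 17.9% of the 28. The transcribed pseudogene AT2G16310 (chromosome 2, 7065216 to 7066190) rose by similar folds in both mutants. The authors' deposited tables give 0.576 RPKM in Col-0 and 4.9969 in nrpe1 (8.67-fold, q = 0.000164), and 0.492 and 4.13 in idn2-1 (8.39-fold, q = 0.000291). It had the highest mutant level of the 29 members in nrpe1. AT5G24240 (chromosome 5, 8228892 to 8234652) encodes a phosphatidylinositol 4-kinase-like protein. It rose from 0.377 to 2.69 RPKM in nrpe1 (q = 2.50e-08) and from 0.322 to 1.19 in idn2-1 (q = 0.00393) in the authors' deposited tables, 7.15-fold and 3.68-fold. BAP2, a C2-domain protein that partners BON1 in limiting cell death, is listed at 0 in Col-0 in the authors' deposited tables, with 1.31 RPKM in nrpe1 and 0.948 in idn2-1 (q = 0.0292 and 0.0312).

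In swi3b +/- and idn2-1 the 7 shared members, 26.9% of the 26 and 25% of the 28, are the 2 genes above and the 5 below. AT1G33760, whose product carries an integrase-type (AP2/ERF) DNA-binding domain, had 1.002 RPKM in Col-0 and 17.7 in swi3b +/- (q = 3.02e-10) but 0.856 and 3.47 in idn2-1 (q = 0.0367) in the authors' deposited tables. It belongs to the set through the idn2 table alone, where Col-0 values are lower. The same holds for AT2G41640, a glycosyltransferase family 61 gene, with 1.0992 and 4.74 RPKM in the swi3b +/- comparison and 0.959 and 2.07 in that of idn2-1 in the authors' deposited tables. Its deposited locus also overlaps the annotated gene AT2G41650, which is itself listed in idn2-1 from 72.0 to 151.6 RPKM (2.11-fold, against 2.16-fold for AT2G41640) in the authors' deposited table. As deposited, the loci of AT2G41640 and AT2G41650 lie 119 bp apart, and the overlap is with the RefSeq gene. The part of that overlap in the value of AT2G41640 was not tested. GDPD6, a glycerophosphodiester phosphodiesterase gene, went from 0.67 to 2.13 RPKM in swi3b +/- and from 0.572 to 3.07 in idn2-1 in the authors' deposited tables (q = 0.0134 and 1.85e-05). The locus of GDPD6 overlaps the annotated gene RPA70B, listed as 1.75-fold higher in swi3b +/- (4.76 to 8.33 RPKM) in the authors' deposited table. Here too the deposited loci lie apart, by 154 bp. PGSIP7, a sugar transferase gene, was at 2.33 and 2.49 times Col-0 by the authors' deposited tables. For AT1G57590, a pectin acetylesterase gene, the same tables of the authors' deposited values give 3.40-fold and 3.39-fold. AT1G57590 is the member whose idn2-table Col-0 value was 1.07 times the other.

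Listed as higher in nrpe1 and in no other table were 20 members. By the words of their annotated product they hold 4 transcription factor-type genes, 3 pseudogenes, 3 enzyme-type genes, 2 uncharacterized proteins and 1 non-coding RNA gene among others. The pseudogene AT2G05200 (chromosome 2, 1882744 to 1887007) rose 22.7-fold from 0.158 to 3.59 RPKM (q = 1.72e-08) in the authors' deposited table. AT3G29639, which encodes an uncharacterized protein, rose 15.1-fold from 0.273 to 4.11 RPKM (q = 0.00099) in the authors' deposited table. The lipase-like gene AT4G26790 rose 10.3-fold from 0.204 to 2.11 RPKM (q = 0.0429) in the authors' deposited table. PUM9, a Pumilio-type RNA-binding protein gene, rose 4.25-fold from 0.49 to 2.08 RPKM (q = 0.000185) in the authors' deposited table. Among genes listed at 0 in Col-0, the MADS-box gene AT1G59930 reached 4.47 RPKM (q = 0.0202) and the non-coding gene AT5G63195 4.09 RPKM (q = 3.73e-07) in the authors' deposited table. AT1G75300, for an NmrA-like protein, reached 2.32 RPKM from a listed 0 (q = 9.52e-05) in the authors' deposited table. The pseudogenes AT3G17200 and AT4G08096 reached 0.942 and 0.808 RPKM from a listed 0 in the authors' deposited table, the lowest mutant levels of the 29.

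The other members higher in nrpe1 alone and above 0 in Col-0 had smaller folds than these. AIG1, a GTP-binding protein gene first known from its induction by a bacterial effector, rose 3.76-fold from 0.428 to 1.61 RPKM (q = 0.00563) in the authors' deposited table. The authors' deposited table gives rises of 3.27-fold (q = 0.0225) for the peroxidase gene AT5G39580 and 2.896-fold (q = 0.0119) for the laccase gene LAC6. NAC003, a transcription factor gene, rose 3.21-fold (q = 0.000672), and the bHLH gene AT2G20100 2.20-fold (q = 0.0367), in the authors' deposited table. The terpene synthase-type gene AT3G14540, the C1-domain gene AT2G21840 and the protein kinase gene AT5G45430 stood 3.60-fold, 2.56-fold and 2.41-fold above Col-0, taken from the authors' deposited table. The remaining 3 genes, AT3G58370 (TRAF-like), AT5G42325 (TFIIS-like) and AT5G63340 (uncharacterized), are listed at 0 in Col-0 and at 1.296 to 1.36 RPKM in the mutant by the authors' deposited table, with q from 0.0434 to 0.0499.

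In swi3b +/- 15 members were listed as higher there alone. By product words 4 are of the enzyme type, 2 are transcription factors, 2 are non-coding RNA genes and 5 fall among other proteins. AT3G09870, a SAUR-type gene of the auxin-responsive family, had the largest rise, 12.8-fold from 0.673 to 8.59 RPKM (q = 0.00209) in the authors' deposited table. WRKY46 and WRKY48, defence transcription factor genes, rose in the authors' deposited table from 0.919 to 3.33 RPKM (3.62-fold, q = 0.00184) and from 0.97 to 2.16 RPKM (2.23-fold, q = 0.0268). MLO12, whose family governs susceptibility to powdery mildew, rose 2.36-fold from 0.492 to 1.16 RPKM (q = 0.0442) in the authors' deposited table. AT3G22910, the calcium pump gene ACA13, rose 2.52-fold from 0.624 to 1.57 RPKM (q = 0.0158) in the authors' deposited table. AT5G44350, annotated as similar to an ethylene-responsive nuclear protein, rose 3.04-fold (q = 0.0327) in the authors' deposited table.

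The remaining members higher in swi3b +/- alone include a pair of cytochrome P450 genes. CYP79F2, which starts the synthesis of aliphatic glucosinolates, rose 4.63-fold from 0.281 to 1.30 RPKM (q = 0.00738) in the authors' deposited table. CYP707A2, an abscisic acid hydroxylase, rose 2.26-fold from 0.73 to 1.65 RPKM (q = 0.00543) in the authors' deposited table. Rises of 3.09-fold (q = 0.0185) for the lipase-like gene GLL22 and 2.83-fold (q = 0.01996) for 4CL8, of the coumarate ligase family, stand in the authors' deposited table. Of 3 genes without a known product, AT1G07485 reached 3.91 RPKM and the non-coding AT5G44562 3.32 RPKM from a listed 0, and the non-coding AT5G45472 rose 3.61-fold, in the authors' deposited table. The last 2 genes, AT2G25460 (EEIG1/EHBP1-type domain) and AT3G06520 (agenet domain), were at 2.58 and 3.58 times Col-0, taken from the authors' deposited table.

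In idn2-1 18 members were listed as higher there alone, among them 3 transcription factor-type genes by product words, 2 wall polysaccharide genes and 7 other proteins. MPC, expressed from the maternal copy in seeds and related to the end of poly(A)-binding proteins, rose 10.7-fold from 0.73 to 7.79 RPKM (q = 0.00237) in the authors' deposited table. The deposited MPC locus runs past the annotated gene and overlaps AT3G19360, so reads there need not all belong to MPC. ARP1, an abscisic acid-regulated RNA-binding protein gene, rose 18.6-fold from 0.288 to 5.35 RPKM (q = 1.17e-12) in the authors' deposited table. FUS3, a master regulator of seed maturation, rose 3.30-fold from 0.323 to 1.06 RPKM (q = 0.0415) in the authors' deposited table. AT1G73550, of the lipid-transfer and seed albumin superfamily, rose 11.9-fold from 0.219 to 2.61 RPKM (q = 0.0312) in the authors' deposited table. CES, a bHLH regulator of brassinosteroid responses, is listed at 0 in Col-0 and 0.604 RPKM in idn2-1 (q = 0.00209) in the authors' deposited table. HB18, a homeobox-leucine zipper gene, rose 4.27-fold from 0.227 to 0.9704 RPKM (q = 0.00929) in the authors' deposited table.

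The largest fold among members above 0 in Col-0 belongs to a non-coding gene in idn2-1. AT4G04223 (chromosome 4, 2036511 to 2037816) went from 0.0574 to 1.79 RPKM, 31.1-fold, with a q of 0.0303 in the authors' deposited table. At the annotated exon length its Col-0 value comes to 0.0324 RPM, so this fold rests on a Col-0 value close to 0. The gene also has a near-identical copy, described below. Of the wall polysaccharide genes, CSLB03 and CSLC12, both cellulose synthase-like, were higher by 2.36-fold (q = 0.0219) and 2.35-fold (q = 0.0241) in the authors' deposited table. PMZ, a stress-associated zinc finger gene, rose 3.97-fold (q = 0.0161), and AT4G11521, a receptor kinase-related gene, 3.13-fold (q = 0.0333), by the authors' deposited table. SS3, named for strictosidine synthase, rose 3.86-fold (q = 0.0198) and SAE1B, of the SUMO-activating enzyme, 3.49-fold (q = 0.0194), by the authors' deposited table. HHP4, a heptahelical protein gene, and AT5G46220, a transmembrane protein gene, were at 2.36 and 2.64 times Col-0 by the authors' deposited table. The other 3 genes, AT1G11655, AT1G31380 and AT5G46300, are listed at 0 in Col-0 and at 1.74, 1.56 and 0.655 RPKM in the mutant, as the authors' deposited table has them.

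By product, the 67 members are 58 protein-coding genes, 4 pseudogenes and 5 non-coding RNA genes. All 4 pseudogenes were higher in nrpe1, 13.8% of its 29 members, 1 of them also in idn2-1 and none in swi3b +/-. Without the limit on span and the genes left out by name, 8 of 39 near-silent genes higher in nrpe1 were pseudogenes. Of these 8, 3 were left out by name and 1 by its span. On the same terms pseudogenes were 2 of 31 in idn2-1, with 1 left out by its span, and 0 of 26 in swi3b +/-. Pseudogenes are 12.8% of the 37899 annotated nuclear genes, and 1.30% of the 230 annotated genes listed as higher in nrpe1 from 1 RPKM or more. The latter share was 0.439% of 456 in swi3b +/- and 1.73% of 289 in idn2-1. In product words, 10 members are DNA-binding or zinc finger proteins (14.9%, against 4.26% of annotated genes). Among all listed higher genes these words caught 27 of 270 in nrpe1, 42 of 483 in swi3b +/- and 14 of 320 in idn2-1. The members so caught were 4 of 29, 2 of 24 and 4 of 28 in the same order. FUS3 is a further transcription factor that those words did not catch. Product words of the enzyme type caught 13 members (19.4%, against 12.2%). These words missed LAC6, 4CL8 and SAE1B, and the peroxidase AT5G39580 and the pectin acetylesterase AT1G57590 were counted with wall proteins. Enzyme-type members were 8 of 24 in swi3b +/- (33.3%), 5 of 29 in nrpe1 (17.2%) and 5 of 28 in idn2-1 (17.9%). Among all listed higher genes the same words caught 117 of 483 in swi3b +/-, 51 of 270 in nrpe1 and 38 of 320 in idn2-1. Kinases or receptors and wall proteins number 4 each by the same kind of words. Whether these shares differ was not tested.

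**Figure D3:**
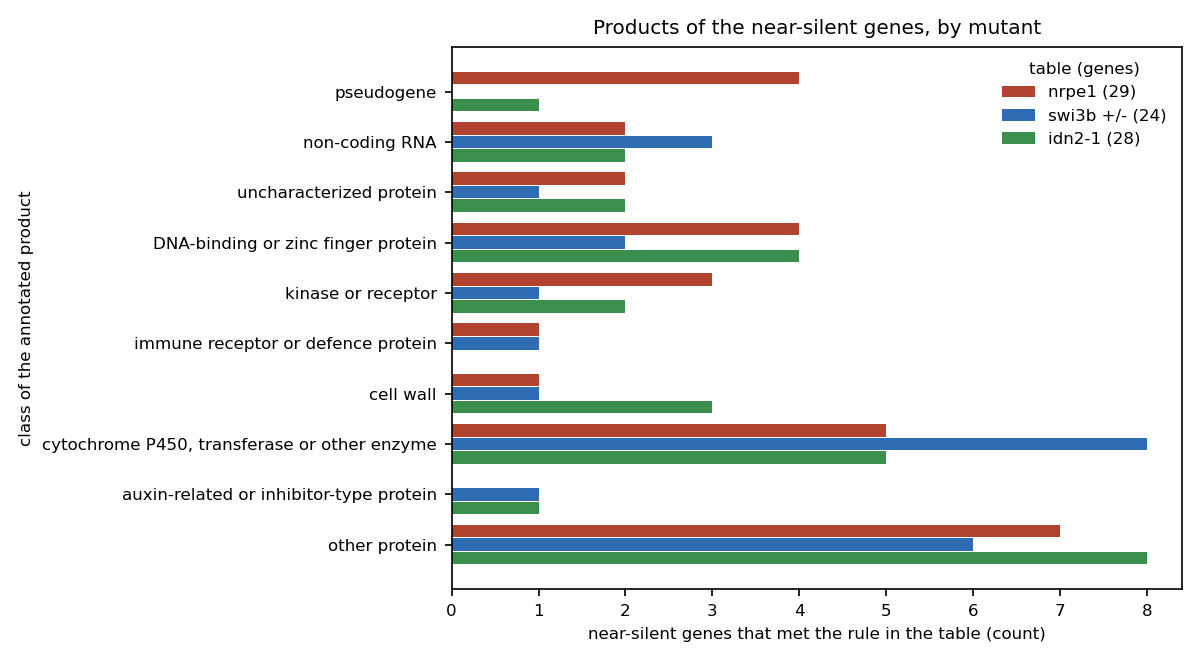
Number of near-silent genes in each class, assigned by words of the annotated product, with 1 bar per mutant table. The 4 pseudogenes appear under nrpe1 and 1 of them under idn2-1, and the longest bars belong to enzymes in swi3b +/- (8) and other proteins in idn2-1 (8).

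Among members above 0 in Col-0 the median fold was 3.60 in nrpe1 (19 genes), 3.09 in swi3b +/- (21 genes) and 3.86 in idn2-1 (23 genes) from the authors' deposited tables. Genes listed as higher from 1 RPKM or more had medians of 1.87, 2.16 and 2.28 in the authors' deposited tables. The smallest folds among members were 2.20, 2.11 and 2.16, while the other listed higher genes reached down to 1.47, 1.56 and 1.86 in the authors' deposited tables. Col-0 level and the listing chose the members, so these differences in fold are descriptions, and no stronger response is read from them. The limit of 1 RPKM cuts through a continuous range. Just inside it in nrpe1 were NAC003 at 0.999 and AT4G14370 at 0.953 RPKM in Col-0, and just outside AT4G30250 at 1.0711 and BBX29 at 1.23 in the authors' deposited table. For swi3b +/- AT5G44350 at 0.978 and WRKY48 at 0.97 RPKM were inside, and AT1G33760 at 1.002 and ELIP1 at 1.06 outside, in the authors' deposited table. For idn2-1 HHP4 at 0.987 and AT2G41640 at 0.959 RPKM were inside, and AT2G23100 at 1.02 and ATPMEPCRB at 1.05 outside, in the authors' deposited table.

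**Figure D4:**
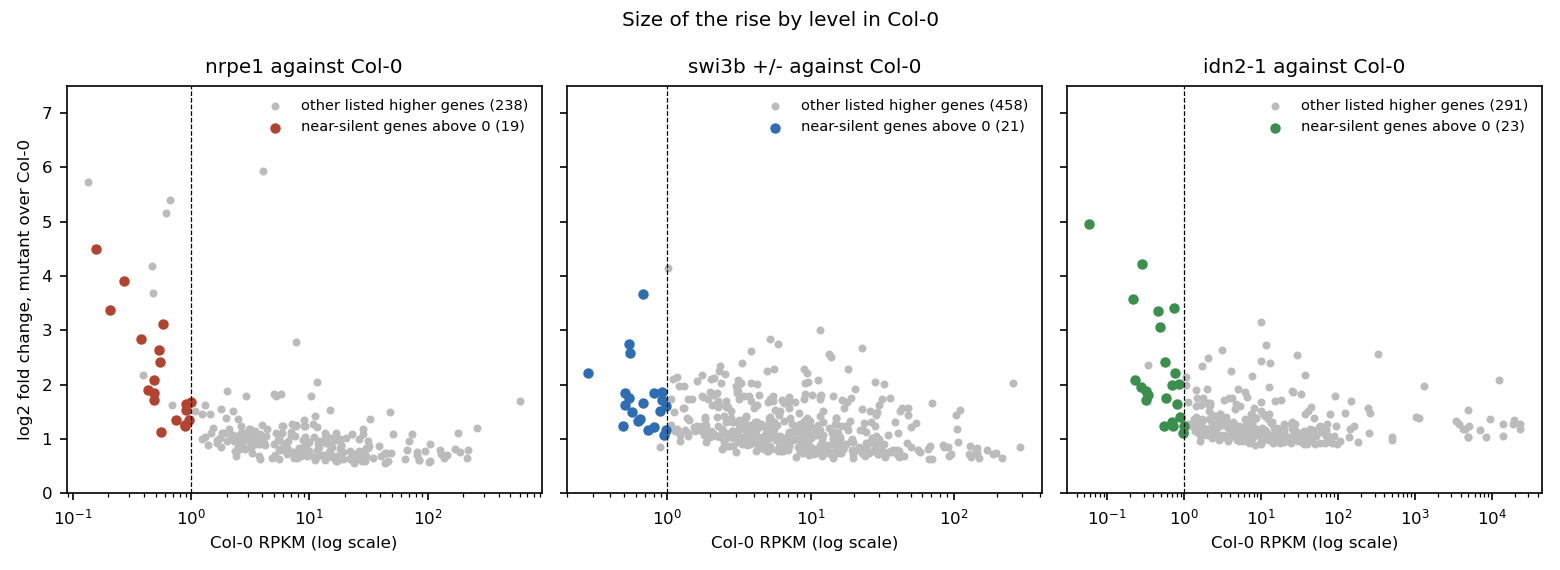
Log2 fold change against the Col-0 RPKM (log axis) of genes listed as higher, 1 panel per mutant, with near-silent genes above 0 in colour, other listed higher genes in grey and a dashed line at 1 RPKM. The lowest coloured points lie at log2 folds of 1.14, 1.07 and 1.11, above the lower edge of the grey points at high Col-0 levels. The Col-0 limit and the listing chose the coloured points, so this difference is a description.

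The deposited loci of 17 of the 67 members also overlap another annotated gene. They are AT1G07485, CES, AT1G75300, AT2G41640, LAC6, PRA1.F4, AT3G17200, MPC, AT3G29644, AT4G08096, AT4G26790, GDPD6, AT5G24240, AT5G44562, AT5G45472, AT5G63195 and AT5G63340. Of these 17, 3 have an overlapping gene that is itself listed. By deposited coordinates those listed genes lie 0 bp from AT4G26790, 119 bp from AT2G41640 and 154 bp from GDPD6. In nrpe1 such overlap held for 6 of 10 members at 0 and 4 of 19 above 0, in swi3b +/- for 3 of 3 and 3 of 21, and in idn2-1 for 1 of 5 and 5 of 23. The shares are thus higher among genes listed at 0 in nrpe1 and swi3b +/- but not in idn2-1, and the part of overlap in the listed zeros was not tested. No member's locus overlaps a listed transposable element (0 of 67), and no member lies within 10 kb of another.

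Sequence copies can draw reads from one gene to another. Outside its own locus, an aligned stretch of at least 300 bp at 95% identity or more was found for 6 of the 67 members, and at 80% or more for 22. SAE1B is identical to AT5G50680 over all 2413 bp, 30930 bp away on chromosome 5, so its value cannot be assigned to 1 copy. AT4G04223 matches a stretch at AT3G56210 on chromosome 3 at 99.2% over 1307 bp. HHP4 matches AT4G38320 at 96.7% over 1967 bp. AT2G41640 matches sequence at AT5G18937 at 98.2% over 784 bp, and AT3G29644 matches sequence at AT4G24050 at 96.3% over 381 bp. In AT2G05200 the first 318 bp recur with 100% identity 482 bp beyond the annotated end of the pseudogene. Some copies under 95% span most of a gene. AT3G29639 matches AT5G11430 at 93.6% over 1178 bp, and AT5G42325 matches sequence at AT4G18720 at 93.2% over 753 bp. AT1G59930 matches AT5G35120 at 88.1% over 603 bp. The sources used here do not say how reads with several matches were treated. The 6 values are uncertain to that extent, and values of members with less similar copies may be too.

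In swi3b +/- 6 of 24 members (25%) had another listed higher feature within 10 kb, against 18.4% of other listed higher genes. The corresponding shares were 6.897% and 9.96% in nrpe1 and 10.7% and 23.2% in idn2-1. Some of these neighbours are related genes. CYP79F1, 1334 bp from CYP79F2 and 87.5% identical to it over 1118 bp, was 1.74-fold higher in nrpe1, 3.47-fold in swi3b +/- and 2.01-fold in idn2-1 by the authors' deposited tables. AT1G54010, beside GLL22 and 88.8% identical over 1091 bp, rose 1.78-fold in swi3b +/- in the authors' deposited table. AT2G21850 beside AT2G21840 rose 2.58-fold in nrpe1 in the authors' deposited table. CSLB04, beside CSLB03, is listed as 2.40-fold higher in swi3b +/-, where CSLB03 is not listed, in the authors' deposited table.

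As a description without a test, a median of 65 annotated genes lay within 100 kb of a member, and the median over all 37899 annotated genes was also 65. Of the members, 5 lay at or below 50 genes, a level met by 10.5% of annotated genes. They are spread over all 5 chromosomes, with 16 on chromosome 1, 13 on chromosome 2, 13 on chromosome 3, 9 on chromosome 4 and 16 on chromosome 5. The median number of pseudogenes within 100 kb was 3 for the members and 3 for all annotated genes, with a range of 0 to 37 among the members.

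Promoters are shown for 6 members, picked after their values and motif matches had been seen, as examples with and without a match. They are those of the 2 genes higher in all 3 mutants, of 3 genes higher in 2 mutants that hold the W-box form, and of AT1G59930, which had the highest nrpe1 level of a gene listed at 0 in Col-0. Each is the 250 bases before the RefSeq gene start in TAIR10.1, 5′ to 3′ on the gene's own strand. Capitals mark matches, on either strand, to 7 motifs: TTGACC (a W-box form, bound by WRKY factors), CACGTG (G-box), GCCGCC (GCC-box), CGCGTT (bound by calmodulin-binding factors), AAAATATCT (evening element), AAACCCTA (telo-box) and TATAAA (a core promoter element). The stretches are chr3:11501425-11501674 (minus strand) for AT3G29644, chr5:447842-448091 (plus) for AT5G02230, chr4:8283536-8283785 (minus) for AT4G14370, chr4:10309592-10309841 (minus) for RLP51, chr5:8234151-8234400 (minus) for AT5G24240 and chr1:22061517-22061766 (minus) for AT1G59930.
AT3G29644: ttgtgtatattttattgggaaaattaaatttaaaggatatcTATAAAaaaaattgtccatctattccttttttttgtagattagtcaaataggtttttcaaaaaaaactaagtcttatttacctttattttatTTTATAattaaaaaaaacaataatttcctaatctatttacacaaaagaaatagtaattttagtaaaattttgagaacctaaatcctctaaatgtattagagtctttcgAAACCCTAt
AT5G02230: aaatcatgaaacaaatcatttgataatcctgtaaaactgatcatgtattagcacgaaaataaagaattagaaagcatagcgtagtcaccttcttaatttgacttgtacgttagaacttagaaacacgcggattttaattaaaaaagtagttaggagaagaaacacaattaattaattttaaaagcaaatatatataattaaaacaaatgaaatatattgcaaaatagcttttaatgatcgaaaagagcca
AT4G14370: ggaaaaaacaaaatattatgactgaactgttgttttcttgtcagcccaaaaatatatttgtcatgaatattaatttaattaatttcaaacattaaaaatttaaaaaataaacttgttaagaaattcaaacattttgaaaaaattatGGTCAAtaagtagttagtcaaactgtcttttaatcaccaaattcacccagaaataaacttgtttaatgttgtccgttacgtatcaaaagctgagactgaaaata
RLP51: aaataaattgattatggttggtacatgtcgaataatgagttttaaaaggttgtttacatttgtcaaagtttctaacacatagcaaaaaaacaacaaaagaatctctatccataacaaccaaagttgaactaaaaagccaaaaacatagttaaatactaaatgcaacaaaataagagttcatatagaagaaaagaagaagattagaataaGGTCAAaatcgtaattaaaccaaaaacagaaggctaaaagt
AT5G24240: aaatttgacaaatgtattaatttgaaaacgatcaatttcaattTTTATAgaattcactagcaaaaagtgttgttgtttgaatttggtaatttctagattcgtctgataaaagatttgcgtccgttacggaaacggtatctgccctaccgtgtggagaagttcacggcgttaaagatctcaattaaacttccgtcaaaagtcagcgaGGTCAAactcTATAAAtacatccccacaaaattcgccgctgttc
AT1G59930: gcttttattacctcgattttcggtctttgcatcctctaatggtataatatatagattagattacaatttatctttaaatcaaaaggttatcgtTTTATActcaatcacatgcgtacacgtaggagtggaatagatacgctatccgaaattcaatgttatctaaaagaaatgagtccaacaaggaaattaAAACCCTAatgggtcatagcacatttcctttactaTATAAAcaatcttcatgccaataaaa

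The promoters of AT4G14370, RLP51 and AT5G24240 each hold the W-box form, here as GGTCAA on the gene's strand. For AT5G24240 these bases fall inside its deposited locus, which reaches beyond the annotated start and overlaps AT5G24230. The promoter of AT3G29644 ends in a telo-box beside the gene start, and AT1G59930 holds another. AT5G02230 holds none of the 7 motifs in these 250 bases. The shares that follow are for the window of 250 bases before to 50 after the start. TTGACC occurs in 5 of the 14 members higher in 2 or 3 tables and in 11 of all 67 (16.4%), against 13.5% of 37897 annotated genes. Among genes listed as higher from 1 RPKM or more it was in 17.8% in nrpe1, 16.9% in swi3b +/- and 14.9% in idn2-1. AAACCCTA occurs in 4 of all 67 members (5.97%) and in 6.17% of annotated genes. By table these are 4 of 29 members in nrpe1, 1 of 24 in swi3b +/- and 1 of 28 in idn2-1. AT3G29644, higher in all 3, is counted in each. Among genes listed as higher from 1 RPKM or more, AAACCCTA was in 2.61%, 1.97% and 5.88% in the same order. CACGTG was found in 2 of the 67 members (2.99%) and 6.46% of annotated genes, and TATAAA in 61.2% and 48.8%. Counting protein-coding genes alone, TATAAA was in 63.8% of members and 52.1% of annotated genes. In the genes listed as higher from 1 RPKM or more, CACGTG was in 11.3%, 12.1% and 4.84% in the same order of mutants. TATAAA was in 56.1%, 57.0% and 53.3% of those genes. Whether any of these motif shares differ was not tested. The motifs do not overlap one another in these 6 promoters. A match is a description of letters and not of binding.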

How the data were processed

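The authors deposited 3 tables, 1 per mutant against Col-0, each with an RPKM value per genotype, a log2 fold change, a p-value and a q-value, per the file headers. TopHat, Cufflinks and the TAIR10 build appear in the submitters' processing notes, without versions. How replicates were pooled and how the p-value was computed are not given in the sources used here. Where a genotype is at 0, the deposited log2 column holds a placeholder and was not used. No per-sample column was left unmapped (0 columns), and no gene was tested anew. Folds are ratios of the deposited RPKM values.

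The members and lists were chosen with earlier results of these data known. The rule for named genes took members higher in all 3 tables, the 8 with the highest mutant RPKM and the 8 with the largest fold per table, at most 4 per pair of tables and per role group, and the 2 genes on each side of the Col-0 limit. The other members and all neighbouring genes were named after their values were seen. The numbers of features tested (27012, 25877 and 27755 for nrpe1, swi3b +/- and idn2-1) were recovered from the Benjamini-Hochberg relation between rank, p and q, a step tested on simulated data.

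Coordinates are 1-based after adding 1 to each deposited start. Names, products, promoters and the genome came from RefSeq TAIR10.1, and all 1462 listed genes that matched it overlapped their annotated gene. Product words were matched in a fixed order. Copies were sought with blastn 2.17.0. Other steps used Python 3.11.15 with pandas 2.3.3, and figures matplotlib 3.10.9. Alternatives changed the Col-0 limit, the minimum mutant level, the q threshold, the span limit, the idn2-table scale, overlapping loci and the pseudocount.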

Additional observations from a re-analysis of the deposited data

How the results depend on the processing

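With a Col-0 limit of 0.5 RPKM the set had 35 members (18 in nrpe1, 5 in swi3b +/-, 15 in idn2-1, 5 in 2 or 3 tables), and at 2 RPKM it had 137 (45, 65, 56 and 30). With q under 0.01 it had 31 members (16, 13, 11 and 8). With loci overlapping 1 annotated gene alone, nrpe1 kept 19 and the genes higher in 2 or 3 tables numbered 9. A minimum of 1 RPKM in the mutant (62 members), no span limit (74) and a rescaled idn2-table Col-0 (63) moved none of these counts by more than 1.5 times. The order of the mutants by number of members changed with the setting: swi3b +/- had the fewest at 0.5 and 1 RPKM and the most at 2, idn2-1 had the fewest with q under 0.01 and the most with loci overlapping 1 gene (19, 18 and 22), and rescaling put both at 24.

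The median log2 fold of 1.85 in nrpe1, 1.63 in swi3b +/- and 1.95 in idn2-1 became 2.55, 1.56 and 1.87 with a pseudocount of 0.1 RPKM, and 1.199, 0.903 and 0.933 with 1 RPKM, both with members at 0 included. It was 1.92 in idn2-1 with a minimum of 1 RPKM in the mutant. No replicate could be left out, and no paired analysis was possible because the tables hold 1 value per genotype and no column for each replicate. The depth is unknown, so precision at these low levels cannot be given.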
